A study of Mus musculus with 44 samples.

Results

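The small leucine-rich proteoglycans are secreted matrix proteins built from leucine-rich repeats, and 10 of them were followed here in sorted skeletal cells of newborn mice. The members were taken as the rows of the count table whose symbol is Dcn, Bgn, Aspn, Fmod, Lum, Prelp, Kera, Omd, Epyc or Ogn, and all 10 were found among 46831 genes. Each was measured as mRNA and as the ratio of m6A immunoprecipitated RNA (IP) to the RNA before immunoprecipitation (input) in 44 libraries of SLIM-seq, a low-input m6A profiling method. Of these, 32 are WT, with 2 IP and 2 input replicates for each of 8 populations sorted by flow cytometry at postnatal day 3: SSC (skeletal stem cells), pre-BCSP and BCSP (bone, cartilage and stromal progenitors), PCP (pro-chondrogenic progenitors), THY, BLSP (B-cell lymphocyte stromal progenitors), 6C3 and HEC (hepatic leukemia factor expressing cells). SSC, pre-BCSP and BCSP are called stem and progenitor populations here, and the other 5 downstream populations. A further 12 libraries, 2 IP and 2 input of each of SSC, pre-BCSP and BCSP, are labelled Mettl3cko. In the study's knockout comparison WT stands for Mettl3 fl/fl control mice and Mettl3cko for Mettl3 fl/fl;Col2a1-Cre mice, on C57BL/6J. There both genotypes carry the floxed allele and only the latter the Cre. The study does not say whether the mice of its survey of 8 populations also carried the floxed allele. The Cre is driven by the promoter of Col2a1, the cartilage collagen gene, and Mettl3 encodes the methyltransferase that writes m6A on mRNA. Mice of either sex gave the cells, which were freed from the metaphyses of the lower limbs, growth plates included, and sorted with antibodies to CD45, Ter119, Tie2, CD51, Thy1, 6C3, CD105 and CD200.

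Small leucine-rich proteoglycans bind collagen fibrils and set how the fibrils form, pack and take up mineral. Class I holds decorin (Dcn) and biglycan (Bgn), which carry chondroitin or dermatan sulfate chains and bind transforming growth factor beta, and asporin (Aspn), which carries no such chain. Class II holds the keratan sulfate carriers fibromodulin (Fmod), lumican (Lum), keratocan (Kera) and osteomodulin (Omd), with Prelp, whose basic end binds heparan sulfate. Class III holds epiphycan (Epyc), known from growth plate cartilage, and osteoglycin (Ogn). m6A is a methyl mark on adenosine, most often in the letters GGACT of an mRNA, and marks many transcripts for shorter life or for other handling.

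WT input libraries held 19795666 to 44046651 counts and WT IP libraries 16480027 to 35856651, and the members took 0.988% to 2.03% of the counts of a WT input library. Replicates of WT IP libraries correlated across genes at 0.877 to 0.964 and input replicates at 0.916 to 0.984, but the IP replicates labelled Mettl3cko only at 0.631 to 0.683. All 44 libraries carry the genotype wild type in their characteristics, so only titles and library names mark the 12 as Mettl3cko. A lower level of Mettl3 was not detected in them, since the fitted log2 difference to WT was 0.19 in SSC, 0.69 in pre-BCSP and -0.15 in BCSP, with adjusted p-values of 0.618 to 0.901. The counts cover the whole gene and cannot separate the floxed exons. The study itself reports loss of Mettl3 in these mice by qRT-PCR and western blot. It also reports less m6A by dot blot and lower m6A levels in SSC, pre-BCSP and BCSP. Levels are given in CPM, the counts-per-million unit, with libraries scaled by TMM. Of the sort antigens, Thy1 was highest in THY (27.4 CPM) and near it in BLSP and PCP, while Enpep, which encodes 6C3, was at 53.3 CPM in HEC and 42.0 CPM in 6C3 and at most 6.32 CPM elsewhere.

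All 10 members differed in mRNA across the 8 WT populations, against 40.1% of the 20060 genes tested (edgeR omnibus test at an adjusted p under 0.05). Epyc, Kera, Omd and Aspn spanned more than an order of magnitude between populations, whereas Dcn, Bgn, Fmod and Ogn were abundant or moderate everywhere. The median span of the members between their highest and lowest population was 1.98 on the log2 scale, beside 1.78 over all genes tested. Per transcript length (FPKM, mean of the 8 populations) Fmod was highest at 1634, followed by Dcn at 1315 and Bgn at 1157. Aspn (460.3), Lum (441.6), Prelp (432) and Omd (345) formed a middle range, and Ogn (106.5), Epyc (69.3) and Kera (35.6) stood lowest. In such bulk samples, fewer cells that express a gene and less RNA per cell cannot be told apart.

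**Figure D1:**
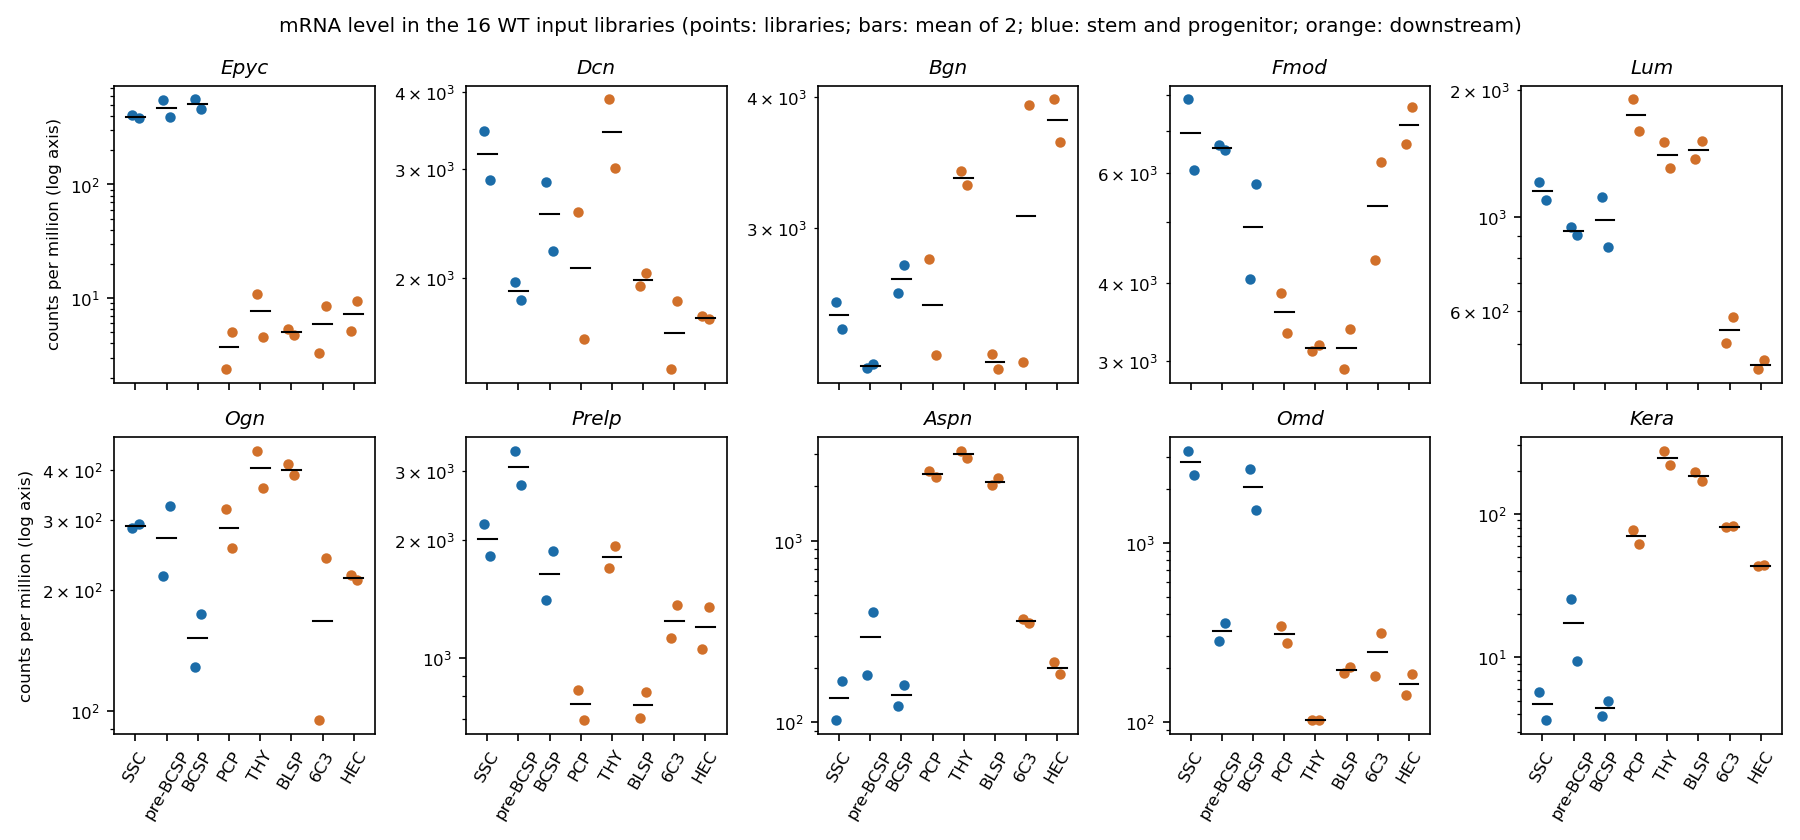
mRNA level of each member in the 16 WT input libraries, in CPM on log axes that differ between panels, with points for libraries and bars for the mean of 2 (blue for stem and progenitor, orange for downstream populations). Epyc drops from 396 CPM in SSC to 7.71 CPM in THY, and Kera runs the other way, from 4.46 CPM in BCSP to 246.5 CPM in THY.

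Within class I, Aspn separated the populations most. Its libraries read 2852 and 3139 CPM in THY, 2249 and 2428 CPM in PCP and 2020 and 2206 CPM in BLSP. All other WT libraries lay between 102 and 404 CPM, so the 3 high populations did not overlap the rest. How many of all genes separate in this way was not counted. In the order of levels, BLSP and 6C3 were neighbours that differed (log2 difference 2.59, SE 0.32, adjusted p = 0.000149), and no other neighbours did. Aspn binds collagen and transforming growth factor beta and is known from periodontal ligament and joint tissue. Decorin and biglycan moved little. Dcn ranged from 1633 ± 293 CPM (SD, n = 2) in 6C3 to 3450 ± 618 CPM (SD, n = 2) in THY, and 5 of the 28 pairs of populations differed. Bgn ranged from 2218 ± 14.7 CPM (SD, n = 2) in pre-BCSP to 3805 ± 250 CPM (SD, n = 2) in HEC, and 3 pairs differed. No neighbours in the order of levels differed for either gene.

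Among class II members, Kera and Omd showed opposite patterns. Kera, keratocan of cornea and tendon, gave 217 and 276 CPM in THY, 170.0 and 195 CPM in BLSP and 3.909 and 5.002 CPM in BCSP. PCP, 6C3 and HEC lay between, at 43.2 to 82.1 CPM, and pre-BCSP was the highest of the stem and progenitor populations at 9.41 and 25.5 CPM. Every stem and progenitor library was below every downstream library, a separation whose share over all genes was not counted, and 22 of 28 pairs of populations differed. Of its neighbours in order, BLSP exceeded 6C3 (log2 difference 1.20, adjusted p = 0.0402), HEC exceeded pre-BCSP (1.41, adjusted p = 0.00830) and pre-BCSP exceeded SSC (1.87, adjusted p = 0.0160). Of 2 cornea markers, Krt12, the keratin of corneal epithelium, had 0 to 7 counts in a WT input library and Aldh3a1, a corneal enzyme also made elsewhere, 146 to 914. Their summed level was 17.4 to 22.8 CPM in THY and 5.16 to 19.3 CPM in the other WT populations, and their part in the Kera levels was not tested.

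Omd, osteomodulin of mineralized tissue, read 2380 and 3270 CPM in SSC and 1517 and 2583 CPM in BCSP. In pre-BCSP it was at 282 and 356 CPM, close to the downstream populations, whose libraries ranged from 102 to 342 CPM. Omd thus set SSC and BCSP apart from pre-BCSP as well as from the downstream populations, and the step from BCSP to pre-BCSP was 2.71 on the log2 scale (SE 0.30, adjusted p = 0.000339). Prelp had its highest level in pre-BCSP, at 2758 and 3373 CPM. Its lowest levels were in BLSP (704 and 820 CPM) and PCP (695 and 831 CPM), and 14 of 28 pairs differed. Lum was highest in PCP (1599 and 1897 CPM) and lowest in HEC (437 and 459 CPM) and 6C3 (503 and 579 CPM), and the step from pre-BCSP to 6C3 was its only neighbour difference (0.70, adjusted p = 0.0138). Fmod was abundant in every WT library, from 2911 CPM in a BLSP library to 7856 CPM in an SSC library.

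Of class III, Epyc gave the widest range of all members. Its level was 465 and 559 CPM in BCSP, 391 and 548 CPM in pre-BCSP and 387 and 405 CPM in SSC. In the 10 downstream libraries it was at 2.37 to 10.8 CPM, which is 109 to 314 counts, so it was detected there but low. The highest population mean exceeded the lowest 139-fold (512 CPM in BCSP and 3.69 CPM in PCP). The step from SSC to THY differed (log2 difference 5.57, SE 0.53, adjusted p = 1.62e-06), and neither the 3 populations above it nor the 5 below it differed between neighbours. Of the 2561 exon bases of Epyc, 1041 also lie in exons of Gm10754, a long noncoding RNA on the other strand. The library method keeps no strand, so reads in that stretch could not be assigned by strand. The same holds for 350 of 3615 exon bases of Prelp, shared with the antisense gene Gm15851, and 7 of 2354 of Aspn, shared with Cenpp. Ogn, osteoglycin, varied less, from 152 ± 33.1 CPM (SD, n = 2) in BCSP to 404 ± 60.8 CPM (SD, n = 2) in THY, and its 2 libraries of 6C3 lay apart at 94.8 and 241 CPM.

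Most members lie in clusters of neighbouring genes, where some neighbours ran in opposite directions and others together. On GRCm38, the cluster of chromosome 10 holds Dcn (chr10:97479609-97518143), Lum (chr10:97565128-97572703), Kera (chr10:97606879-97613692) and Epyc (chr10:97644068-97682454), all on the plus strand. Kera and Epyc are 30.4 kb apart and ran in opposite directions over the 16 WT input libraries, with a Pearson correlation of log2 CPM of -0.87, while Dcn and Lum correlated at 0.55. The cluster of chromosome 13 holds Aspn (chr13:49544443-49567565), Omd (chr13:49582462-49592822) and Ogn (chr13:49608046-49624501), within the span of Cenpp on the other strand. Aspn and Omd are 14.9 kb apart and correlated at -0.65, while Aspn and Ogn correlated at 0.62. Prelp and Fmod are on chromosome 1 (chr1:133910304-133921414, minus strand, and chr1:134037254-134048277, plus strand) and correlated at 0.56. Bgn is on the X chromosome (chrX:73483602-73495933). These correlations are descriptions over 16 libraries of 8 populations, which share their sort.

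**Figure D2:**
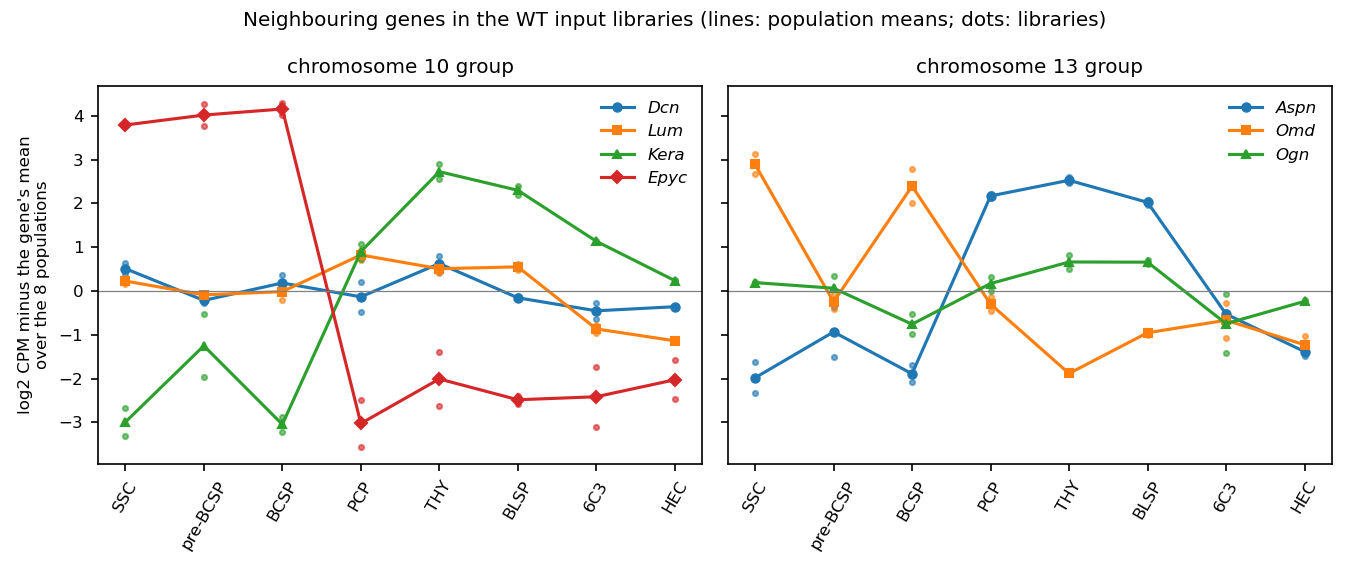
log2 CPM of neighbouring members minus each gene's mean over the 8 WT populations, for the clusters of chromosome 10 and chromosome 13, with lines for population means and dots for libraries. Kera and Epyc cross between the stem and progenitor and the downstream populations, and Omd is low in pre-BCSP but high in SSC and BCSP, while Aspn is high in PCP, THY and BLSP.

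The promoters of these neighbours are shown because their mRNA levels went opposite ways. A promoter is taken here as 250 bases before to 50 bases after a RefSeq start on GRCm38.p6, and 8 of the 10 members had an entry, while Dcn and Lum had none. Capitals mark matches on either strand to the E-box CANNTG, the SOX core ACAANG and the TATA box TATAAA, which 72.3%, 41.2% and 13.6% of the 32851 RefSeq promoters hold. The Epyc entry used is the first of its 2 (chr10:97643818-97644117), beside Kera (chr10:97606955-97607254), Aspn (chr13:49544193-49544492) and Omd (chr13:49582212-49582511), all on the plus strand. The Kera window lies inside the annotated Kera gene, which starts at chr10:97606879, and holds GGACT letters of its 5′ UTR. The first Epyc entry lies upstream of exon 1 of the Epyc transcript used for length and GGACT sites. The second Epyc entry covers the start of that transcript.
Epyc: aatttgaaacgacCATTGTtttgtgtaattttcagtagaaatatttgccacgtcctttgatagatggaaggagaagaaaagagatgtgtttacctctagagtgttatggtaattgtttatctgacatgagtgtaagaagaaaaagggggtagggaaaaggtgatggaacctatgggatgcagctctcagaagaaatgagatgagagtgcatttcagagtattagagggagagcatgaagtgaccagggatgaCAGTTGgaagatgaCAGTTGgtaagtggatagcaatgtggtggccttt
Kera: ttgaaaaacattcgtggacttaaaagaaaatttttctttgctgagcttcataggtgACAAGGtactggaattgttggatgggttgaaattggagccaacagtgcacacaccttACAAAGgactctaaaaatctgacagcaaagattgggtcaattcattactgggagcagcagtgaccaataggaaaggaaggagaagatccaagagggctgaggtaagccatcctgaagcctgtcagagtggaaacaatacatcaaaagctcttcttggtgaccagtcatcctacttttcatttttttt
Aspn: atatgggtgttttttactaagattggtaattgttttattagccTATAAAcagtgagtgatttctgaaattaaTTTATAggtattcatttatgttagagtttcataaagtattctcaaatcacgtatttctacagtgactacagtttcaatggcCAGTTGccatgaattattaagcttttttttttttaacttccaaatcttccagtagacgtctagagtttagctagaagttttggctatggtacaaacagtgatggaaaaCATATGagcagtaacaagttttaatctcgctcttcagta
Omd: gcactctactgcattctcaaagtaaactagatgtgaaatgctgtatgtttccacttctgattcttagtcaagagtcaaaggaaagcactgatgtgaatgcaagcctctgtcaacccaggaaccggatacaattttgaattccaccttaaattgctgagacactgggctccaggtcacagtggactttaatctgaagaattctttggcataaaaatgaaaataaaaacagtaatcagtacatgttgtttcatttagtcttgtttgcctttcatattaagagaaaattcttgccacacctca
The Epyc window held 2 E-boxes and 1 SOX core, and the Kera window 2 SOX cores and no E-box. The second Epyc entry (chr10:97646853-97647152) held 2 E-boxes and 3 SOX cores. The Aspn window held 2 E-boxes and 2 TATA boxes, the Ogn window 4 E-boxes, 1 SOX core and 2 TATA boxes, and the Omd window none of the 3 motifs. The Bgn and Prelp windows each held 1 E-box, and the Fmod window 1 E-box and 1 SOX core. A match describes letters only, and no binding was measured.

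Between stem and progenitor and downstream populations, 4 members were higher and 3 lower. Higher in stem and progenitor cells were Epyc (log2 difference 6.23, SE 0.25, adjusted p = 4.78e-11), Omd (2.61, SE 0.15), Prelp (0.90, SE 0.11) and Fmod (0.44, SE 0.11, adjusted p = 0.00375), against 23.1% of all genes. Kera (-3.92, SE 0.21, adjusted p = 5.87e-10), Aspn (-2.59, SE 0.18) and Bgn (-0.35, SE 0.12, adjusted p = 0.0188) were lower, against 28.3% of all genes. Dcn (0.16), Lum (-0.02) and Ogn (-0.37) did not pass the test, with adjusted p-values of 0.263, 0.936 and 0.0812. The median log2 difference of the members was 0.07 and that of all genes tested -0.11. All 7 calls held under each alternative and without any of the 16 libraries.

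The populations also differed in which members set them apart from the mean of the other 7. SSC had higher Epyc, Dcn, Fmod, Prelp and Omd (5 of 10, beside 11.9% of all genes) and lower Aspn and Kera (2 of 10, beside 11.8%). The 5 fell to 2, Epyc and Omd, without SSC replicate 1 and with library size alone, and to 3, with Fmod, without SSC replicate 2. Pre-BCSP had higher Epyc and Prelp (9.59% of all genes) and lower Aspn and Kera (8.38%), and BCSP had higher Epyc and Omd (12.7%) and lower Ogn, Aspn and Kera (12.8%). Among downstream populations, PCP had higher Lum, Aspn and Kera (12.9%) and lower Epyc and Prelp (5.07%). THY had higher Dcn, Lum, Ogn, Prelp, Aspn and Kera (6 of 10, beside 10.8%), with Epyc, Fmod and Omd lower (5.75%). Without THY replicate 1 the 6 fell to 2, Aspn and Kera, and without THY replicate 2 to 4, Dcn, Lum, Aspn and Kera, with 2 and 1 in place of 3 lower. BLSP had higher Lum, Ogn, Aspn and Kera (9.39%) and lower Epyc, Fmod, Prelp and Omd (4.57%), of which Aspn, Kera, Lum and Epyc were left without BLSP replicate 1 and Aspn, Kera, Epyc and Prelp without BLSP replicate 2. In 6C3 only Kera was higher (8.31%), and Epyc and Lum were lower (3.85%). HEC had higher Bgn and Fmod (6.37%) and lower Epyc, Lum, Aspn and Omd (2.88%). Neither Bgn nor Fmod was called without either HEC library, and without replicate 1 only Lum and Aspn were left. In pre-BCSP, Aspn was lost without replicate 1 and Kera without replicate 2. Kera in PCP was lost without PCP replicate 1 (0.90), and Ogn in BCSP without BCSP replicate 1 (-0.72). In all 47 of 80 member and population pairs were called, of which 39 held under every alternative and 25 also without any library. The calls of Bgn in HEC (log2 difference 0.55) and Prelp in THY (0.49) were the least stable, with 9 and 6 of 16 left-out libraries ending them, with values of 0.48 (adjusted p = 0.402) without HEC replicate 1 and 0.42 (adjusted p = 0.329) without THY replicate 2.

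The genes whose levels ran closest to a member over the 16 WT input libraries were found among 8548 genes of at least 10 CPM. Kera ran closest to Tnmd, tenomodulin of tendon (r = 0.98), then Rufy1 (0.97) and Ncald (0.96). Aspn ran closest to Pi16 (0.98), a marker of fibrous tissue fibroblasts, Postn (0.98), periostin of periosteum and ligament, and Fmo1 (0.97). Epyc was nearest to Tomm20, Polr1c and Nhp2l1 (0.98 each), genes of mitochondrial import, RNA polymerase and splicing. Fmod ran with Nt5e, Etv5 and Itih5l-ps (0.95 to 0.96), Lum with Tspan18, Irf1 and Apod (0.91 to 0.95) and Omd with Gnb4, Cst3 and B230118H07Rik (0.92 to 0.94). Prelp was nearest to Acadvl, Slc1a5 and Pepd (0.90 to 0.91), Bgn to P4hb, Alas1 and Ndufa11 (0.87), Ogn to Atp7a, Flrt2 and Mfap2 (0.85 to 0.87) and Dcn to Pmm1, Chrdl1 and Efemp1 (0.80).

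Marker genes of other cell types moved with these differences. Between stem and progenitor and downstream populations, 23.1% of all genes were higher in the former and 28.3% lower. The summed level of 8 tendon and fibrous tissue markers was 1207 to 4665 CPM in the stem and progenitor libraries and 7824 to 27370 CPM in the downstream libraries, and 7 of the 8 were lower in stem and progenitor cells. That of the chondrocyte markers was 105000 to 125800 CPM in stem and progenitor libraries, 79190 to 101800 CPM in HEC and 7936 to 8111 CPM in THY, and all 9 tested markers were higher in stem and progenitor cells. Of 8 osteoblast markers 6 were higher in stem and progenitor cells, among them Bglap (2.31 on the log2 scale), Ibsp (1.78) and Sp7 (0.78). Col1a1, the bone and tendon collagen, was lower (-3.66), and the summed level of the list, which holds Col1a1, was 8055 to 15780 CPM in the stem and progenitor libraries and 62790 to 142100 CPM downstream. Marrow stroma markers were lower in 5 of 5, and summed blood markers were at most 90.05 CPM in every input library. Aspn was high in THY, PCP and BLSP, where tendon and fibrous markers were highest. Kera was highest in THY and BLSP. In PCP the marker sum was 20480 to 24890 CPM, above the 15090 to 17050 CPM of BLSP, but Kera was lower, at 61.5 and 77.5 CPM. Epyc was high where chondrocyte markers were high, except that HEC and 6C3 held many chondrocyte transcripts (44220 CPM or more) and at most 9.47 CPM of Epyc. The part of cell mixtures in these results was not tested.

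Genes that act with the proteoglycans divided in the same contrast, in which 23.1% of all genes were higher and 28.3% lower. Of 14 collagens on or in fibrils, 3 were higher in stem and progenitor cells, namely the cartilage collagens Col2a1 (log2 difference 1.95), Col11a2 (2.05) and Col11a1 (1.48). The other 11 were lower, led by Col1a1 (-3.66), Col5a3 (-4.20), Col3a1 (-2.93) and Col1a2 (-1.62), and the median of the list was -1.30. Col2a1 is also a chondrocyte marker here, Col1a1 an osteoblast marker and Col3a1 a tendon and fibrous tissue marker. Of 7 proteases that cut these proteoglycans, 6 were lower and none higher, with Bmp1 at -1.88, Mmp14 at -2.04, Adamts4 at -5.57 and Adamts5 at -1.24. Of 17 enzymes of the glycosaminoglycan linker and of dermatan and keratan sulfate, 5 were higher and 8 lower. Xylt1, which starts the chains, was higher by 1.87 and Fam20b, a kinase of the linker, by 0.83, while Dsel (-1.41) and Dse (-0.58), the epimerases that make dermatan sulfate, and Ust (-0.87), a sulfotransferase, were lower. Of 13 tested growth factors and receptors that members bind, Igf1r was higher (0.99) and 7 were lower, among them Egfr (-1.71), Tgfbr1 (-1.57), Bmp4 (-0.76) and Tgfbr2 (-0.64). Of 8 other small leucine-rich repeat proteins, Chad (2.32) and Ecm2 (0.66) were higher and Tsku (-2.26), Podn (-1.58) and Podnl1 (-0.84) lower.

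In the m6A libraries, the members fell into a group above and a group below their input level. Aspn, Bgn, Dcn, Epyc, Ogn and Omd had a mean log2 ratio of IP to input above 0 in all 8 WT populations, and Fmod and Prelp below 0 in all 8. Aspn had the highest median, with replicate ratios of 0.43 to 1.41 in the 16 pairs of libraries and a median of population means of 0.98. Ogn reached 1.56 in 6C3, where its replicates read 2.36 and 0.76, and Epyc 1.41 in PCP, with 1.97 and 0.84. Epyc rests on 109 to 338 counts in each downstream library, and its replicates there lay as far apart as 2.11 and 0.59 in 6C3. Bgn (medians of 0.57), Dcn (0.54) and Omd (0.56) were moderately above 0, and the medians of Lum (-0.15) and Kera (-0.12) lay near 0, although Kera was at 1.13 in BCSP.

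**Figure D3:**
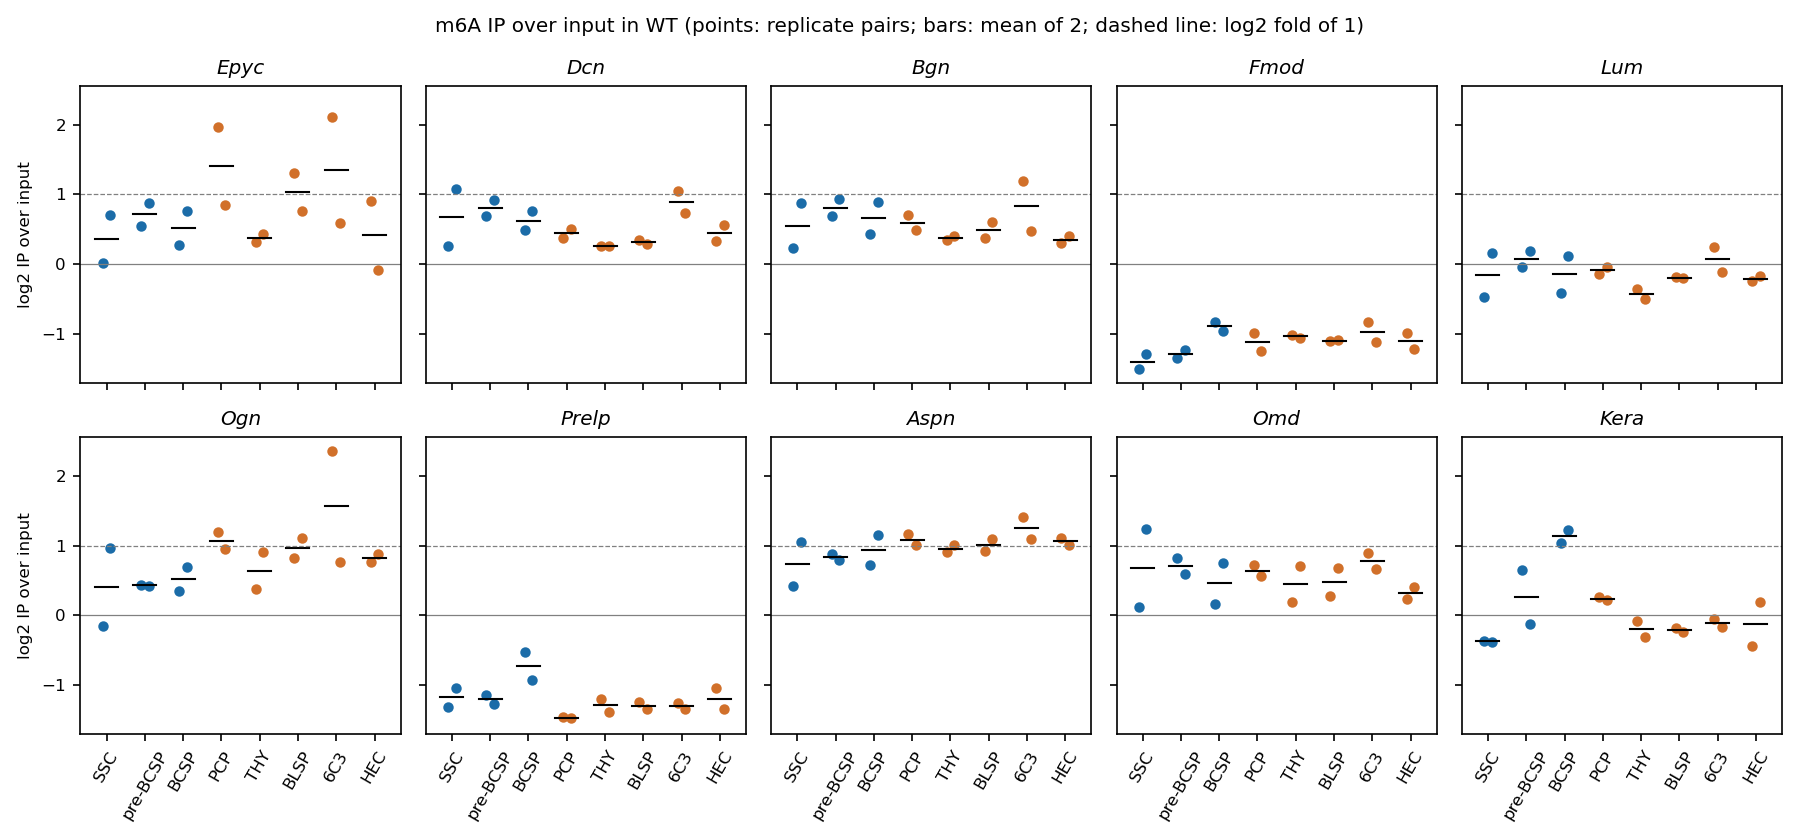
log2 ratio of IP to input of each member in the 8 WT populations, with points for the replicate pairs of libraries, bars for the mean of 2, blue for stem and progenitor and orange for downstream populations, and a dashed line at 1. Fmod and Prelp lie below 0 at every point, and Aspn lies near 1 in all populations.

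Genes whose fitted log2 ratio exceeded 1 in a population with an unadjusted p under 0.05 were called tagged, the thresholds of the study's methods. Of 80 member and population pairs 9 were tagged: Aspn in BCSP (log2 ratio 1.02), PCP (1.05), 6C3 (1.27) and HEC (1.13), Epyc in PCP (1.28), BLSP (1.02) and 6C3 (1.22), and Ogn in PCP (1.04) and 6C3 (1.43). Among all genes, SSC had 10.4% tagged, pre-BCSP 12%, BCSP 6.67%, PCP 10.6%, THY 12.4%, BLSP 12.4%, 6C3 14.5% and HEC 13.5%. With an adjusted p under 0.05 in its place, Aspn in PCP, 6C3 and HEC and Ogn in 6C3 were tagged, 4 of 80 pairs. By that rule SSC had 3.95% of all genes tagged, pre-BCSP 7.65%, BCSP 0.848%, PCP 4.72%, THY 8.85%, BLSP 8.56%, 6C3 10.1% and HEC 10.7%. Aspn lay close to the fold limit elsewhere, at 0.89 to 0.98 in SSC, pre-BCSP, THY and BLSP. Of the 9 calls only Aspn in 6C3 held under every alternative and without any library. Blocking on replicate, which pairs the IP and input of a sorted batch, left 7 pairs, without Aspn in BCSP (0.97) and Epyc in BLSP (0.98).

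Fmod and Prelp were depleted in the IP. The fitted log2 ratio of Fmod ran from -0.86 in BCSP to -1.31 in SSC and that of Prelp from -0.71 in BCSP to -1.51 in PCP. Each passed an adjusted p under 0.05 in 7 of 8 populations, with BCSP the exception (adjusted p = 0.105 and 0.111). The share of all genes below their input by this rule was not counted. The median log2 ratio of all genes tested ran from -0.05 in SSC to 0.03 in HEC. With the replicate block both passed in BCSP (adjusted p = 0.0118 and 0.0397), and Fmod did not in 6C3 (adjusted p = 0.0544). The longest coding transcripts of Fmod and Prelp hold few GGACT letters per length, 0.32 and 0.55 per kb, beside a median of 1.01 over 21877 protein-coding genes. Both have the longest transcripts (3120 and 3615 bases) and the highest GC content (53.7% and 53.8%) of the members. Dcn (2.28 per kb), Ogn (1.56), Aspn (0.86), Bgn (0.83) and Epyc (0.79) held more GGACT per length and had ratios above 0. Lum had 0.41 per kb and Kera 1.75 per kb with median ratios near 0 (Kera reached 1.13 in BCSP). Omd had no GGACT and a ratio above 0, and Bgn had a GC content of 52.5% and a ratio above 0. A relation of these features to the ratio was not tested. GGACT is the letter string most often methylated, and its sites in members that differ in ratio are printed with 10 bases on either side and GGACT in capitals, as DNA letters of the transcript strand.
Aspn, exon 1, 5′ UTR, chr13:49544500-49544504: gtactaacatGGACTaatctgtgga
Aspn, exon 3, coding, chr13:49554015-49554019: tgactttaaaGGACTcacttcactt
Ogn, exon 1, 5′ UTR, chr13:49608063-49608067: ctctcacttgGGACTaatgcacagg
Ogn, exon 1, 5′ UTR, chr13:49608106-49608110: aaaaccacaaGGACTtcaaccagat
Ogn, exon 2, coding, chr13:49609258-49609262: agtcgcagctGGACTcacatgttaa
Ogn, exon 5, coding, chr13:49618147-49618151: atagaagatgGGACTttttcaaaac
Epyc, exon 1, 5′ UTR, chr10:97647411-97647415: caaataccaaGGACTctgtatgctc
Epyc, exon 2, coding, chr10:97649727-97649731: agttgccctgGGACTtatcatcatt
Fmod, exon 1, 5′ UTR, chr1:134037388-134037392: gccccttacaGGACTgaaaaagcca
Prelp, exon 2, coding, chr1:133914625-133914629: ggtacttcaaGGACTtccccaacct
Prelp, exon 3, 3′ UTR, chr1:133912283-133912287: gctgggccatGGACTgacatcttat
Of the 22 GGACT sites of the members, 12 lie in coding sequence, 9 in the 5′ UTR and 1, that of Prelp, in the 3′ UTR. Of the members 90.0% have at least 1, and of all protein-coding genes 87.6%. The counts are per gene, so no site was shown to be methylated.

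Whether the ratio was called different between populations depended on the pairing of IP with input. With edgeR's omnibus test of IP by population, 0 members passed an adjusted p under 0.05 and 0 an unadjusted p under 0.05, beside 0.485% of all genes, and DESeq2 called none. With the replicate block, Kera (adjusted p = 0.00722) and Dcn (adjusted p = 0.0448) passed. Between stem and progenitor and downstream populations, 0 members passed the adjusted test, where 3.06% of all genes had a higher and 1.77% a lower ratio, while Bgn, Dcn, Kera and Prelp had an unadjusted p under 0.05 and DESeq2 called none. Prelp was 0.47 higher on the log2 scale in stem and progenitor cells (SE 0.15, adjusted p = 0.0675). With the replicate block the values were 0.47 for Prelp (adjusted p = 0.00678), 0.42 for Dcn (0.0122) and 0.63 for Kera (0.0163). The share of all genes called with the block was counted for neither test. Without the block, leaving out WT pre-BCSP IP replicate 2 called Kera and Prelp, WT pre-BCSP input replicate 1 Kera, and WT 6C3 IP replicate 2 or WT HEC input replicate 1 Prelp.

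In the libraries labelled Mettl3cko, Kera was the member whose mRNA differed most from WT. In pre-BCSP it read 87.5 and 105.8 CPM against 9.41 and 25.5 CPM in WT, and in BCSP 25.1 and 37.4 CPM against 3.909 and 5.002 CPM. The groups did not overlap in either population, and the share of all genes with such a separation was not counted. In SSC Kera was at 4.29 and 9.15 CPM against 3.64 and 5.78 CPM, and these overlapped. The mean log2 difference over the 3 populations was 1.95 (SE 0.27, adjusted p = 0.00300), and Kera alone of the 10 members passed in edgeR (DESeq2 also called Bgn), beside 3.75% of all genes higher and 2.72% lower. The level in Mettl3cko pre-BCSP was within the range of downstream WT populations, where Kera was at 43.2 to 276 CPM.

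**Figure D4:**
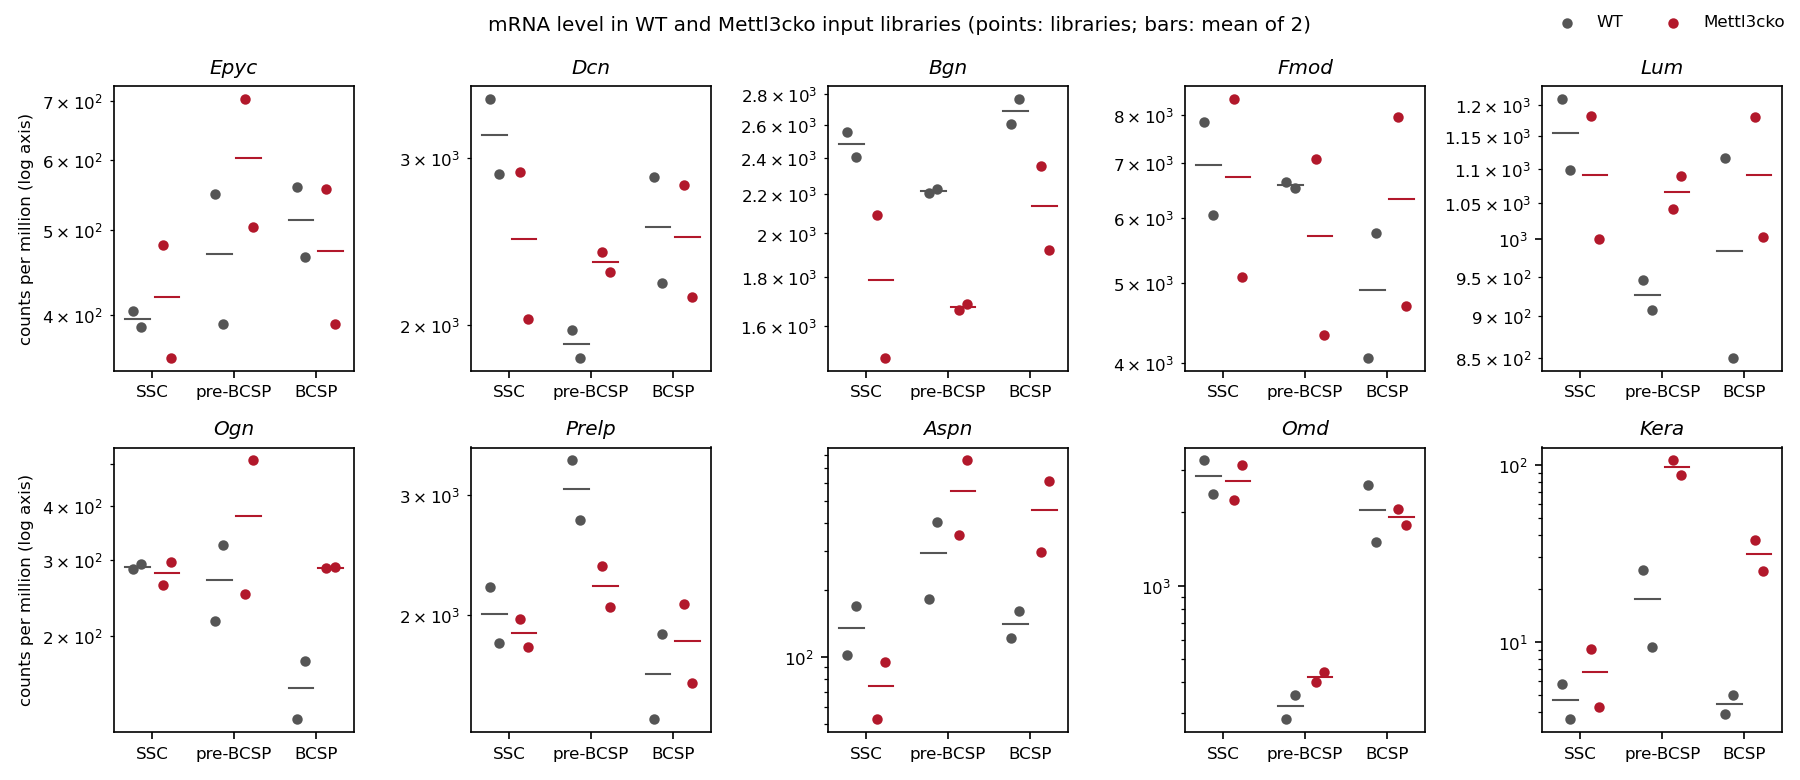
mRNA level of each member in WT and Mettl3cko input libraries of SSC, pre-BCSP and BCSP, in CPM on log axes that differ between panels, with points for libraries and bars for the mean of 2. Kera is higher in both Mettl3cko libraries than in both WT libraries in pre-BCSP and BCSP, and Aspn is higher in BCSP and lower in SSC.

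Within each population, a member was called at a log2 difference beyond 0.5 and an unadjusted p under 0.05, as the study's methods do. In SSC, Aspn was lower in Mettl3cko (52.6 and 95.4 CPM against 102 and 169 CPM in WT, log2 difference -0.87, SE 0.35, adjusted p = 0.323), beside 6.96% of all genes higher and 7.07% lower. This call was lost without Mettl3cko replicate 1 (-0.48) and without WT replicate 2 (-0.44). In pre-BCSP, Kera was higher (2.50, SE 0.48, adjusted p = 0.569), beside 3.88% of all genes higher and 4.48% lower. Without Mettl3cko pre-BCSP replicate 1 the count of called pairs over the 3 populations rose from 5 to 9. In BCSP, Kera (2.81, SE 0.37, adjusted p = 0.174), Aspn (1.68, SE 0.35, adjusted p = 0.209) and Ogn (0.92, SE 0.23, adjusted p = 0.243) were higher, beside 7.22% of all genes higher and 5.72% lower. Aspn there was at 295 and 614 CPM against 122 and 160 CPM, and Ogn at 287 and 289 CPM against 128 and 175 CPM.

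With an adjusted p under 0.05, edgeR called 0 members and 0% of all genes in SSC, in pre-BCSP and in BCSP. DESeq2 called 0 members in SSC, Kera in pre-BCSP and Kera, Aspn and Ogn in BCSP, and its share of all genes was not counted. Over the 3 populations, Bgn (-0.39, adjusted p = 0.0561), Ogn (0.47, adjusted p = 0.143) and Aspn (0.59, adjusted p = 0.243) did not pass. Bgn was below both WT libraries in each Mettl3cko library of all 3 populations, at 1482 to 2352 CPM against 2207 to 2765 CPM. The share of all genes with such a separation was not counted. The interaction of genotype with population called 0 members and 0% of all genes, and 2 members, Aspn and Kera, had an unadjusted p under 0.05 in edgeR (adjusted p = 0.941 for each). DESeq2 was not run for it. Dcn, Epyc, Fmod, Lum, Omd and Prelp had mean differences of -0.12 to 0.13 and adjusted p-values of 0.620 or more.

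Some fibrous tissue markers moved beside Kera and Aspn by the same unadjusted rule, and none of the marker genes passed an adjusted p within a population. By the unadjusted rule, 7.22% of all genes were higher in BCSP, 3.88% higher and 4.48% lower in pre-BCSP, and 7.07% lower in SSC. In Mettl3cko BCSP, 4 of 8 tendon and fibrous markers were higher, namely Thbs4 (log2 difference 1.43), Pi16 (4.37), Dpt (1.30) and Tnmd (0.89), and their summed level was 2191 to 3285 CPM against 1207 to 2071 CPM in WT. In pre-BCSP, Pi16 (3.799) and Dpt (1.13) were higher while the sum was 2068 to 3899 CPM against 2476 to 4665 CPM, and the chondrocyte markers Col2a1, Col9a1 and Col9a2 were lower. In SSC, where Aspn was lower, Thbs4 (-1.29), Tnmd (-1.24) and Scx (-2.44) of the 8 were lower too. The sum there was 1065 to 1420 CPM against 1412 to 1801 CPM. Pi16, higher in pre-BCSP and BCSP, was not among these lower markers. It ranged from 6 to 4005 counts over the WT input libraries. Over the 3 populations Pi16 alone of the 8 passed the adjusted test (3.12, adjusted p = 0.0273), beside 3.75% of all genes higher and 2.72% lower. The median of the list was -0.01. The part of such cells in the Kera and Aspn levels was not tested.

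Of the other gene lists, 2 of 8 other small leucine-rich repeat proteins were lower in Mettl3cko over the 3 populations and none higher. Among all genes, 2.72% were lower and 3.75% higher in this test. Ecm2, whose gene (chr13:49504810-49532789) precedes Aspn in the chromosome 13 cluster, fell by 1.24 on the log2 scale (SE 0.11, adjusted p = 0.000431). It was at 217 ± 0.99 CPM (SD, n = 2) against 526 ± 94.5 CPM (SD, n = 2) in SSC, 164 against 481 CPM in pre-BCSP and 140 against 268 CPM in BCSP. Chad, chondroadherin of cartilage, was at -0.95 (adjusted p = 0.00482). Of 17 glycosaminoglycan enzymes, Chst2 (1.33), B4galt1 (0.53) and B3galt6 (0.45) were higher and B3gat3 (-1.06), which adds the last sugar of the linker, lower. Of 13 growth factors and receptors Tgfb2 was higher (0.57), and of the 14 collagens and 7 proteases none passed.

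The ratio of IP to input in Mettl3cko was lower than in WT over most genes, with a median log2 difference of -0.39 over the 20360 genes tested and -0.40 over the 10 members. In the single populations the median over all genes was smaller, at -0.26 in SSC, -0.23 in pre-BCSP and -0.13 in BCSP. No spike-in is described, so the size of this shift depends on the scaling of the libraries. Set against the median of -0.39, Bgn (0.18), Fmod (0.34), Prelp (0.01) and Ogn (-0.08) lay above it and Aspn and Lum (-0.71, adjusted p = 0.0602) below it. None of these passed in edgeR, and DESeq2 called Lum. Dcn had mean ratios of 0.19 to 0.37 in Mettl3cko, against 0.63 to 0.80 in WT SSC, pre-BCSP and BCSP. Its unadjusted p in edgeR was under 0.05, and it did not pass the adjusted test. In edgeR, Kera alone of the members passed an adjusted p under 0.05, with a difference of -2.37 (SE 0.61, adjusted p = 0.0376), beside 3.94% of all genes. It was widest in SSC, where the fitted difference was -4.95 (SE 1.14, adjusted p = 0.0441), beside 1.1% of all genes. Fitted on the 8 SSC libraries alone, it was -4.90 (SE 1.62) and did not pass (adjusted p = 0.246). There the IP libraries labelled Mettl3cko held 2 and 6 counts of Kera and those of WT 89 and 78, while the inputs held 261 and 135 counts and 166 and 103 counts. In pre-BCSP and BCSP the differences were -0.62 and -1.52 and did not pass, where 0.0688% and 0% of all genes did. With SSC left out, an alternative chosen after the values were seen, the mean difference of Kera was -1.11 (adjusted p = 0.576). With the replicate block it was -2.33 (adjusted p = 0.0714). The call held without either Mettl3cko SSC IP library, either Mettl3cko BCSP IP library, Mettl3cko pre-BCSP IP replicate 1, Mettl3cko SSC input replicate 2, WT SSC IP replicate 2 or WT pre-BCSP IP replicate 2, and was lost without any of the other 16, at adjusted p-values of 0.0523 to 0.117.

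**Figure D5:**
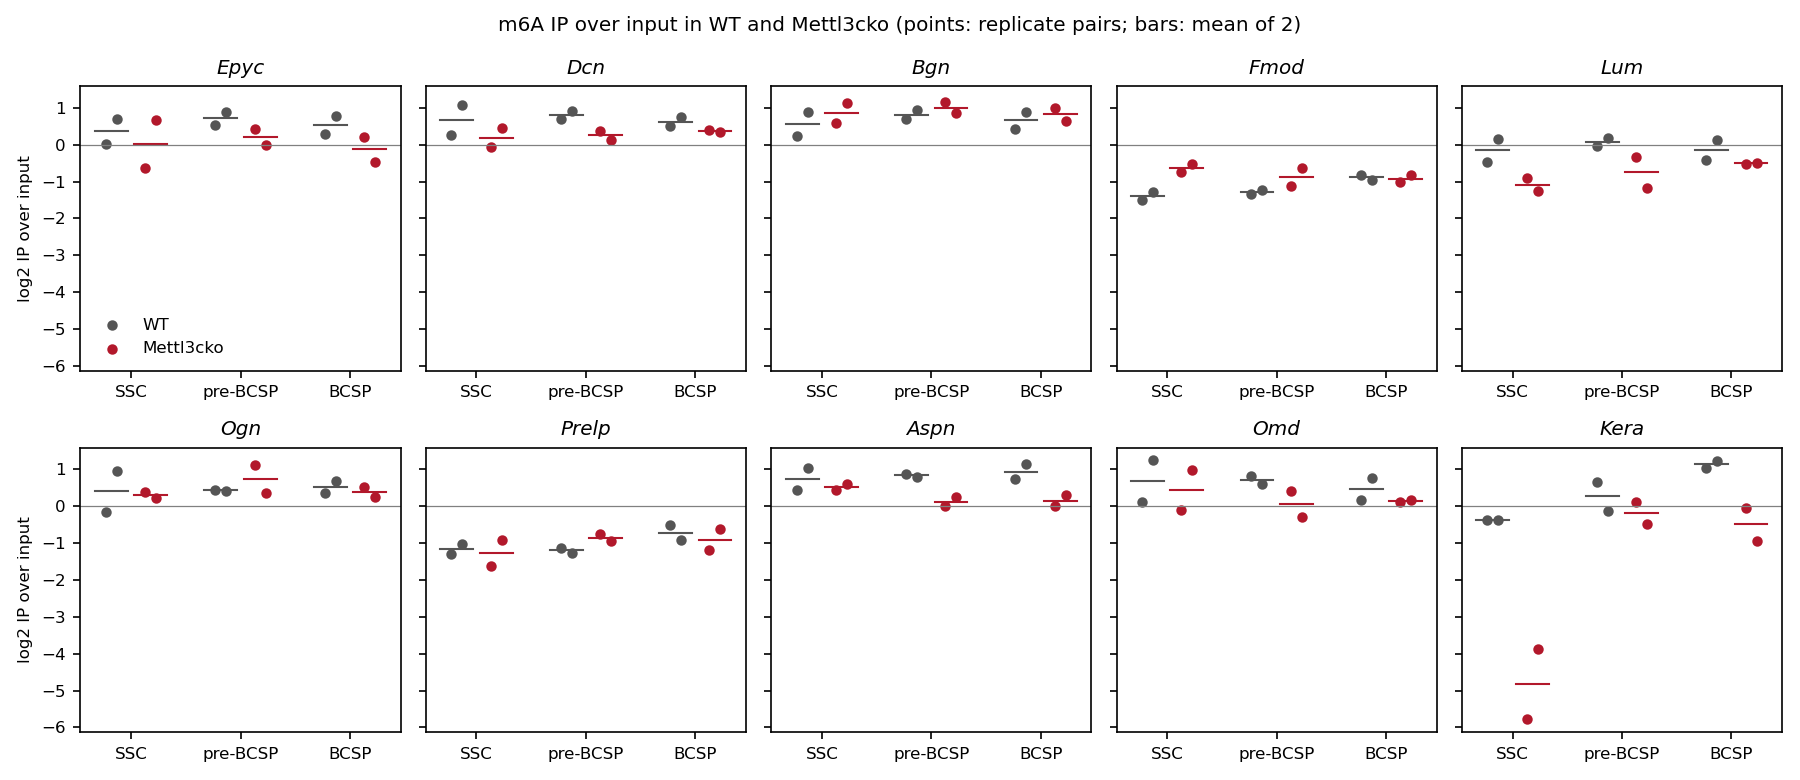
log2 ratio of IP to input of each member in WT and Mettl3cko SSC, pre-BCSP and BCSP, with points for replicate pairs and bars for the mean of 2. Kera in Mettl3cko SSC lies at -5.78 and -3.87, and Fmod and Prelp lie below 0 in both genotypes.

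Some members kept their side of 0 in Mettl3cko and others did not. Fmod (-1.11 to -0.52) and Prelp (-1.62 to -0.63) had ratios below 0 in all 6 Mettl3cko pairs, as in WT, and Bgn was above 0 in all 6 (0.58 to 1.15). Kera in BCSP had a mean ratio of 1.13 ± 0.13 (SD, n = 2) in WT and -0.50 ± 0.63 (SD, n = 2) in Mettl3cko. Aspn ranged from -0.01 to 0.60 in Mettl3cko and from 0.43 to 1.15 in WT SSC, pre-BCSP and BCSP, with a fitted difference of -0.60 (SE 0.51, adjusted p = 0.739). Lum was at -1.26 to -0.34 in Mettl3cko, against -0.48 to 0.19 in WT. Epyc (-0.64 to 0.66) and Omd (-0.30 to 0.99) spread over 0 in Mettl3cko, and their adjusted p-values were 0.538 and 0.738.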

How the data were processed

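The authors trimmed paired-end reads with fastp 0.20.1, aligned them to GRCm38 with HISAT2 2.2.1 and deposited raw counts per gene from featureCounts 2.0.1, which are the unit analysed here. Libraries came from 100 ng RNA per IP by a transposase method without strand, and sorted cells of 1 batch were split between m6A profiling and RNA sequencing. No spike-in is described, so each ratio compares a transcript with the rest of its library. Of 46959 entries, 128 whose names repeat (1-Mar and 2-Mar, at most 0.390% of counts) were left out and 46831 kept, of which 44687 matched GENCODE vM21. Files of the authors' own comparisons (log2 fold changes, p-values and Wald statistics) were not used.

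Counts were scaled by TMM, filtered with filterByExpr and tested with edgeR 4.0.16 quasi-likelihood fits (limma 3.58.1, R 4.3.3, data.table version 1.17.8) over all genes, with Benjamini-Hochberg adjustment. Log2 CPM used a prior count of 2, SE is the log2 difference divided by the square root of F, and tables and plots used Python 3.11.15, pandas 2.3.3 and matplotlib 3.10.9. WT populations were fitted on 16 input libraries, tagging on 4 libraries per population, Mettl3cko mRNA on 4 libraries per population or 12 over the 3, and the Mettl3cko ratio on 24. Alternatives were DESeq2 1.42.0, its size factors, library size alone, no filter, other sets of libraries, a replicate block and leaving out each library. The code was checked on simulated data with log2 changes of 1 and 2, called at an adjusted p under 0.05. The stem and progenitor contrast recovered 84% and 100% of them and SSC tagging 3% and 57%. Mettl3cko mRNA gave 13% and 81% in SSC and 61% and 94% over the 3 populations, and the Mettl3cko ratio 0% and 30%. Of the calls, 2.52% to 13% were false. A result that did not pass therefore does not show that a change is absent. The study describes its 2 replicates per group as biologically independent experiments. The labels do not tie them to animals, and p-values measure the spread between these samples. Within each of the 22 groups the 2 replicates differed by more than sampling noise. The labels give all 44 libraries the same batch.

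The members and lists were chosen with earlier results of these data known. Named genes are all 10 members, up to 4 genes with the lowest p among those called in a list, and the 3 genes most correlated with each member. Marker lists, and single markers named from them, were read as values. IP and input with the same replicate number deviated from their group means together (r = 0.05 to 0.551 over 11 groups, median 0.139), and their pairing comes from the split of a sorted batch in the methods. Depth was 19795666 to 44046651 counts per WT input library and 22056571 to 33126857 per IP library labelled Mettl3cko.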

Additional observations from a re-analysis of the deposited data

Results flagged for a closer look

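The IP to input ratio of Kera in WT was above 0 in both replicates in BCSP (1.04 and 1.23) and PCP (0.27 and 0.22) and below 0 in both in SSC (-0.36 and -0.38), THY, BLSP and 6C3. Every replicate of these groups lay on 1 side, which drew attention to it. The test of the difference itself, edgeR's IP by population term over the 8 populations, gave 0.188 before adjustment (adjusted p = 0.888) and did not pass. With the replicate block, which pairs the IP and input of a sorted batch, the same term passed (adjusted p = 0.00722).

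Aspn mRNA was higher in both libraries labelled Mettl3cko than in both WT libraries in BCSP and lower than in both in SSC. The edgeR interaction of genotype with population gave 0.0105 before adjustment (adjusted p = 0.941), so the difference between the populations did not pass over all genes.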

How the results depend on the processing

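No called value of a single member changed direction under any alternative or left-out library. Values that were not called were not checked for this. Under an alternative, 390 values kept their call or their rank of level, 21 lost their call and 4 ranks moved. When a library was left out, 876 kept their call and 80 lost it. The 9 tagged pairs became 5 without a filter on low counts and 4 with an adjusted p. The 5 Mettl3cko mRNA pairs became 0 with an adjusted p. The count of 1 member changed in mRNA over the 3 Mettl3cko populations became 2 with library size alone, 4 with no filter, 2 with DESeq2 and 3 with the replicate block. The count of 1 for the Mettl3cko ratio became 2 with library size alone, 3 with no filter, 2 with DESeq2, 0 with the replicate block and 0 with pre-BCSP and BCSP alone, which was chosen after the values were seen. With the replicate block, the ratio differed in 2 members across WT populations and in 3 between stem and progenitor and downstream populations, where the unblocked counts were 0 and 0. Leaving out 1 library at a time gave 9 to 10 members differing in mRNA across WT populations, 7 to 8 between stem and progenitor and downstream populations, 41 to 52 pairs set apart from the other populations, 6 to 13 tagged pairs, 4 to 9 Mettl3cko mRNA pairs, 1 to 2 members in Mettl3cko mRNA, 0 to 2 in the Mettl3cko ratio, 0 to 0 in the ratio across populations and 0 to 2 in the ratio between stem and progenitor and downstream populations. Shares of all genes were counted for the calls of the main fits only, not for these alternatives or for groups without overlap. The causes were not tested. Mettl3cko and WT inputs with the same number did not deviate together (r = -0.052 to 0.048), and WT populations ranged from -0.515 to 0.432 over 28 pairs, with 0.412, 0.223 and 0.432 for the 3 pairs among SSC, pre-BCSP and BCSP. The Kera ratio in Mettl3cko SSC rests on 2 and 6 IP counts.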
